A study of Homo sapiens with 72 samples.

Results

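The expression and stability of 7 genes of the stress granule core were examined among the 44659 gene names of the count table: G3BP1, G3BP2, CAPRIN1, USP10, TIA1, TIAL1 and UBAP2L. They were taken by symbol and were chosen by measured values, since earlier results of these data showed a loss of G3BP2 RNA in siCTU2 cells in the T arm at 0 h. That contrast is therefore given here as a description only. All 7 genes passed the filter on low counts in every comparison.

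The cells were A375, an established human melanoma line. Cytoplasmic RNA was read with QuantSeq, which counts reads at the 3′ ends of polyadenylated RNAs, in 72 libraries. In the siRNA experiment, cells were reverse-transfected 42 h before the drugs. The siCTU2 cells received a pool of 2 siRNAs directed at CTU2, and the siGL2 cells a control siRNA. In these libraries the effects of the pooled siRNAs cannot be told apart. As a check for off-target effects, the study also transfected each siRNA singly. It set the results beside the pool by RT-qPCR for CTU2, ORC3, POLR1F, FABP5 and LIMK1. In the medium experiment, cells had been given medium without glutamine (mQ) or with it (pQ) for 18 h. All 4 conditions then received triptolide at 25 µM, a blocker of transcription, alone (T arm) or with cycloheximide at 100 µg/ml, a blocker of translation (TCHX arm). Cells were harvested at 0 h, immediately after the drugs were added, and at 3 h and 5 h, which gave 24 groups of 3 replicates. No group was free of triptolide. No source says that the replicates came from separate cultures, so p-values measure the spread between these libraries.

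Stress granules are cytoplasmic assemblies of RNA and protein that form when translation initiation stops. G3BP1 and its paralog G3BP2 are RNA-binding proteins whose condensation with untranslated mRNA starts them. CAPRIN1 and USP10 bind the same domain of the G3BP proteins, CAPRIN1 favouring granules and USP10, a deubiquitinase, opposing them. UBAP2L binds G3BP1 and promotes assembly, while TIA1 and TIAL1 are related RNA-binding proteins of the same granules. CTU2 is a subunit of the enzyme that puts sulfur on the wobble uridine of the tRNAs that read AAA, GAA and CAA codons. Cycloheximide holds ribosomes on mRNA and is known to dissolve stress granules.

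The guide strands of the siRNAs are shown because the siCTU2 and siGL2 cells were treated alike apart from these agents. They are complementary to the target strands in the study's oligonucleotide list, and the capitals mark the seed, bases 2 to 8 from the 5′ end.
siCTU2#1 guide: uUGGUCAUgagcuugauag
siCTU2#2 guide: aAGUCCUUcauguucacgc
siGL2 guide: uCGAAGUAuuccgcguacg
In CTU2, the targets of siCTU2#1 (chr16:88713389-88713407) and siCTU2#2 (chr16:88714907-88714925) lay in the coding sequence on the plus strand (GRCh38, GENCODE 44) and were identical over all 19 bases. The complement of the siCTU2#1 seed is ATGACCA, that of the siCTU2#2 seed is AAGGACT, and that of the siGL2 seed is TACTTCG. These letters were searched on the sense strand of the 3′ UTR of 10872 tested genes, using 1 canonical coding transcript per gene. The following 19-base windows of the members held such a match, with the match in capitals.
G3BP2, siCTU2#1: aggactgagaaATGACCAt
G3BP2, siCTU2#2: cttggagaattAAGGACTg
G3BP1, siCTU2#2, first: ttagtgctggaAAGGACTa
G3BP1, siCTU2#2, second: tcctagaagatAAGGACTa
TIA1, siCTU2#2: acccagtgaatAAGGACTc
The G3BP2 windows lay at chr4:75645191-75645209 and chr4:75645203-75645221 on the minus strand. They shared 7 bases and together spanned 31. The G3BP1 windows lay at chr5:151809605-151809623 and chr5:151810618-151810636 on the plus strand, and the TIA1 window at chr2:70212709-70212727 on the minus strand. The USP10 transcript held ATGACCA in its coding sequence. In CAPRIN1, TIAL1 and UBAP2L neither set of letters was found in the 3′ UTR.

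Over all genes searched, 10.8% held ATGACCA in the 3′ UTR, 13.7% held AAGGACT and 1.5% held TACTTCG. A match of either siCTU2 guide was found in 3 of the 7 members, against 21.6% of all genes, and matches of both were found in 1 of the 7, G3BP2, against 307 genes (2.82%). Over the whole length, the closest window of G3BP2 to a siCTU2 guide differed from the CTU2 target of siCTU2#2 at 5 of 19 bases, and 7.91% of genes held a window at least as close. It lay in the 3′ UTR at chr4:75643755-75643773, minus strand, and is printed with the bases identical to the target in capitals.
G3BP2, closest window: tCGTtAgCATGgAaGACTT
Counted from the 5′ end of the target strand, the differences were G1T, G5T, A7G, A12G and G14A. A match of letters is a description of sequence, and its part in the levels given here was not tested.

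The 8 genes described lie on separate chromosomes, apart from USP10 and CTU2 on chromosome 16. In GRCh38 (GENCODE 44), G3BP2 spans chr4:75641849-75724589 and G3BP1 chr5:151771045-151812911. CAPRIN1 spans chr11:34051731-34102610, USP10 chr16:84699986-84779922 and UBAP2L chr1:154220179-154271510. TIA1 spans chr2:70209444-70248660, TIAL1 chr10:119571802-119597029 and CTU2 chr16:88706483-88715396. The coding sequence of G3BP2 was rich in the codons AAA, GAA and CAA, which together made up 14.1% of its 482 codons, the 93.4th percentile of 10831 genes whose median was 6.62%. TIAL1 followed with 13.1% (90.2nd percentile), then G3BP1 with 10.3% (76.3rd percentile), CAPRIN1 with 10.2%, TIA1 with 10.1% and USP10 with 9.15%. UBAP2L, with 4.51%, lay at the 34.2nd percentile.

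The libraries held 5987692 to 15534331 counts. Levels are given as CPM, for which each library's counts are brought to a common total. The targeted gene was low as labelled: CTU2 ranged from 0.133 to 10.4 CPM (median 0.867) in the 18 siCTU2 libraries and from 17.5 to 35.0 CPM (median 27.5) in the 18 siGL2 libraries. Of 12 melanoma markers, 9 had a median of at least 1 CPM, SOX10, S100B and MITF among them, while MLANA, TYR and PRAME were at or near 0. In 3 libraries (siCTU2 TCHX 5 h replicate 3, mQ T 5 h replicate 3 and pQ TCHX 0 h replicate 3) 19896 to 20364 genes were detected, against 15507 to 17495 in the other 69. The summed level of 10 markers of other cell types was 66.4 to 68.0 CPM in these 3 libraries and 0 to 2.60 CPM in the others, carried by the leukocyte gene PTPRC (31.1 to 32.6 CPM) and the T cell gene CD3E (31.1 to 32.6 CPM). The siCTU2 library among them also held the highest CTU2, G3BP1 and G3BP2 of its condition. The differences of G3BP2 and G3BP1 between conditions or arms that use it are therefore given with and without it. Other values, such as the means of the translation-dependent decay index and the correlations over groups, are given only with it.

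G3BP2 RNA was low in siCTU2 cells at every time and in both arms, and lower after the transcription block than at 0 h. At 0 h in the T arm, the contrast that chose the genes, G3BP2 was at 8.32, 6.82 and 10.6 CPM in siCTU2 and at 118, 118 and 119 CPM in siGL2. At 3 h it was at 3.51, 1.46 and 2.00 CPM in siCTU2 and at 124, 119 and 126 CPM in siGL2. At 5 h it was at 2.16, 1.08 and 0.667 CPM in siCTU2 and at 123, 113 and 109 CPM in siGL2. The siGL2 values stayed close to each other on this scale, while each later siCTU2 library lay below every siCTU2 library of 0 h. The 5 h values rested on 20, 15 and 5 counts, so a few reads moved them. In the TCHX arm of siCTU2, G3BP2 was at 8.67, 9.08 and 11.4 CPM at 0 h, at 2.56, 2.51 and 5.16 CPM at 3 h, and at 1.01, 1.26 and 51.4 CPM at 5 h. The last value (579 counts, against 10 and 15 in the other 5 h libraries) belonged to the library with the leukocyte genes. The TCHX arm of siGL2 held 93.9 to 118 CPM of G3BP2, above every siCTU2 library.

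**Figure D1:**
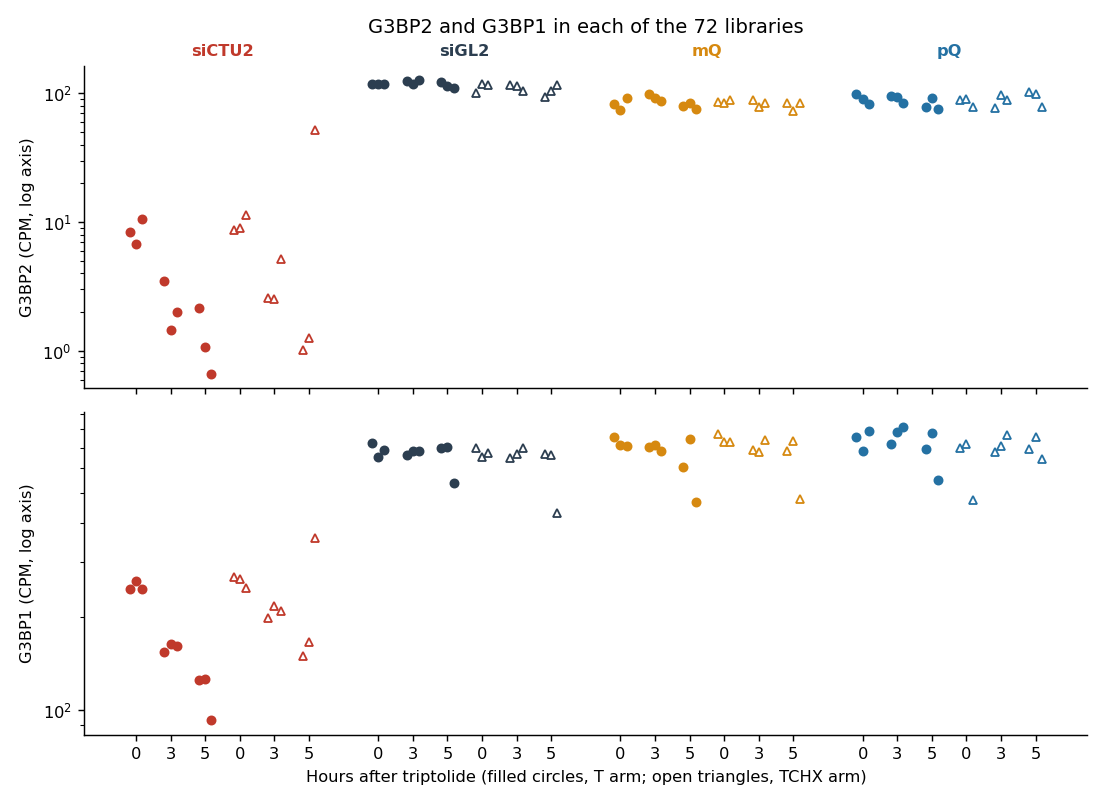
CPM of G3BP2 (top) and G3BP1 (bottom) in each of the 72 libraries on log axes, by condition and hours after triptolide; filled circles are the T arm and open triangles the TCHX arm. All siCTU2 libraries lay below all siGL2 libraries for both genes, with siCTU2 TCHX 5 h replicate 3 (51.4 CPM of G3BP2) nearest to them.

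G3BP1 RNA was lower in siCTU2 cells too, and to a smaller extent. In the T arm of siCTU2, G3BP1 was at 246, 260 and 245 CPM at 0 h, at 154, 163 and 161 CPM at 3 h, and at 125, 126 and 93.0 CPM at 5 h. In the TCHX arm of siCTU2 it was at 269, 264 and 247 CPM at 0 h, at 198, 217 and 209 CPM at 3 h, and at 150, 166 and 358 CPM at 5 h. The 18 siGL2 libraries ranged from 431 to 726 CPM (median 670), so the conditions did not overlap in any library. In order of the median over 18 libraries, G3BP2 was at 115 CPM in siGL2, 89.5 CPM in pQ, 84.7 CPM in mQ and 3.03 CPM in siCTU2. Its ranges in siGL2 (93.9 to 126 CPM), pQ (75.6 to 103 CPM) and mQ (73.1 to 99.1 CPM) overlapped, and the siCTU2 range (0.667 to 51.4 CPM) lay apart. For G3BP1 the order was pQ (714 CPM), mQ (711 CPM), siGL2 (670 CPM) and siCTU2 (203 CPM), with only siCTU2 apart from the rest.

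To measure the difference in libraries that the choice of genes did not use, siCTU2 was compared with siGL2 in the TCHX arm at 0 h. These libraries share siRNAs and harvest time with the contrast that chose the genes. The comparison therefore repeats that contrast and is not an independent test of the choice. G3BP2 (8.67, 9.08 and 11.4 CPM against 100, 118 and 116 CPM) had a log2 fold change of -3.52 (SE 0.125, adjusted p 1.2e-13 by edgeR's quasi-likelihood test), the 13th lowest of 12507 genes. G3BP1 (269, 264 and 247 CPM against 699, 655 and 671 CPM) had a log2 fold change of -1.37 (SE 0.0725, adjusted p 2.6e-11, edgeR). TIAL1 (83.7, 90.7 and 87.5 CPM against 77.8, 71.2 and 61.1 CPM) was higher, with a log2 fold change of 0.33 (SE 0.0988, adjusted p 0.0127, edgeR). These groups did not overlap for any of the 3 genes, nor for USP10, which did not pass. The share of all genes without overlap was not counted, so nothing is read from this. The TIAL1 call was lost without siGL2 TCHX 0 h replicate 3, at a log2 fold change of 0.24 and an adjusted p of 0.0807 in edgeR. In bulk RNA, fewer cells with a transcript and less of it per cell cannot be told apart.

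The binding partners and the remaining granule proteins did not pass the threshold in the TCHX arm at 0 h. CAPRIN1 was at 365, 378 and 363 CPM in siCTU2 and at 325, 393 and 333 CPM in siGL2 (log2 fold change 0.08, adjusted p 0.449, edgeR). USP10 was at 113, 112 and 105 CPM against 96.5, 96.6 and 100 CPM (0.18, adjusted p 0.0998, edgeR). The 3 siCTU2 values of USP10 lay above the siGL2 values, and CAPRIN1 overlapped. UBAP2L was at 139, 121 and 159 CPM against 147, 129 and 136 CPM (0.03, adjusted p 0.835, edgeR). TIA1, which holds an AAGGACT match in its 3′ UTR, was at 37.1, 36.6 and 43.0 CPM against 41.8, 47.0 and 43.2 CPM (-0.17, adjusted p 0.262, edgeR). In all, 3 of the 7 members passed, and the share of all genes that passed in either direction was 37.2%.

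Averaged over the 5 arm and time groups other than the T arm at 0 h, the log2 difference between siCTU2 and siGL2 was -4.61 for G3BP2 and -1.78 for G3BP1, both past the threshold in edgeR (adjusted p 1.51e-10 and 3.11e-11). Without siCTU2 TCHX 5 h replicate 3 they were -5.41 and -1.88. The fit of this average had no replicate term and counted each library as separate, although 3 replicates stand behind each condition. Its p-values therefore do not measure the spread between replicates. On this average USP10 also passed (0.17, adjusted p 0.0285, edgeR), which it had not at 0 h. In all, 4 of the 7 members passed on the average, beside 6478 of 14138 genes. The median log2 difference over all genes was 0.078. In the T arm at 0 h, given as a description, the log2 fold changes were -3.77 for G3BP2, the 9th lowest of 12292 genes, -1.46 for G3BP1, 0.42 for TIAL1 and -0.12 to 0.08 for the other 4 members. There, 3 of 7 passed, with 36% of all genes, and nothing is read from that count because the contrast chose the genes.

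**Figure D2:**
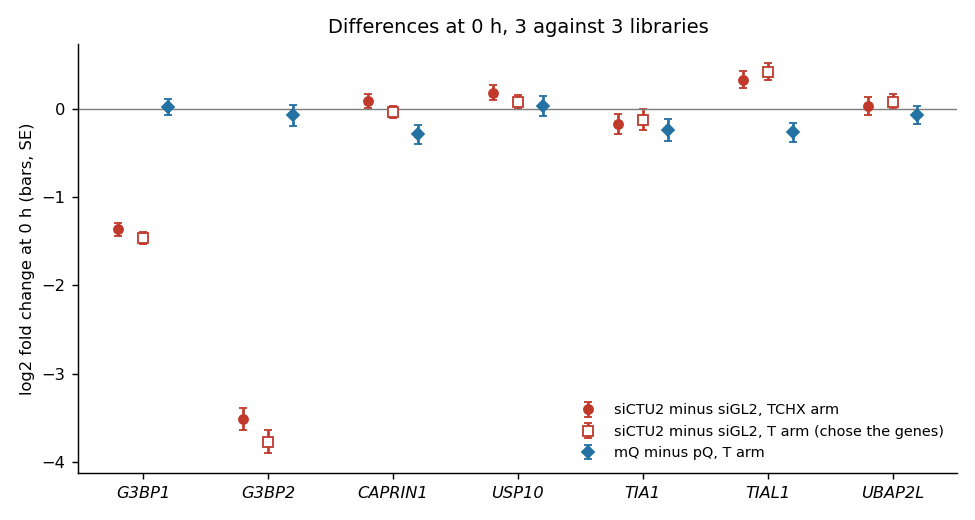
Log2 fold changes of the 7 genes at 0 h, as points with SE bars, for siCTU2 minus siGL2 in the TCHX arm (filled circles), the same in the T arm (open squares, the contrast that chose the genes) and mQ minus pQ in the T arm (diamonds), each from 3 against 3 libraries. G3BP2 (-3.52) and G3BP1 (-1.37) stood below the other 5 genes in siCTU2, and no such difference between the paralogs and the rest was seen for mQ.

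The paralogs were also set against each other within each library, which needs no scaling between libraries. The log2 ratio of G3BP2 to G3BP1 counts, averaged per replicate over the 5 groups other than the T arm at 0 h, was -5.85 ± 0.603 (SD, n = 3) in siCTU2 and -2.52 ± 0.121 (SD, n = 3) in siGL2. The difference of -3.33 had a p of 0.1 in the exact two-sided permutation test, the smallest that 3 against 3 allows. It was -3.53 without siCTU2 TCHX 5 h replicate 3, whose own log2 ratio was -2.80 against -7.21 and -7.04 in the other libraries of its group. At 0 h of the TCHX arm alone it was -2.15 (p 0.1, exact permutation). In the medium experiment, the ratio differed between mQ and pQ by -0.0042 (p 1, exact permutation, n = 3 each) over the same 5 groups. At 0 h of the TCHX arm alone it was -3.11 ± 0.0736 (SD, n = 3) in mQ and -2.85 ± 0.219 (SD, n = 3) in pQ, a difference of -0.26 (p 0.1, exact permutation, the smallest possible), where pQ includes a library with leukocyte genes, whose ratio was the highest. In the T arm at 0 h the difference was -0.094 (p 0.5, exact permutation).

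Glutamine depletion was examined in the T arm at 0 h, where 0 of the 7 members passed the threshold in edgeR, beside 24.8% of all genes. At an unadjusted p under 0.05 in edgeR there were 2, CAPRIN1 and TIAL1, beside 4681 of 12374 genes, so nothing is read from that count. DESeq2 called 0. CAPRIN1 was at 297, 229 and 265 CPM in mQ and at 346, 321 and 333 CPM in pQ (log2 fold change -0.29, adjusted p 0.0704, edgeR). TIAL1 was at 75.9, 68.2 and 76.5 CPM in mQ and at 98.2, 90.8 and 86.2 CPM in pQ (-0.27, adjusted p 0.0902, edgeR). For both genes the mQ values lay below the pQ values without overlap, and scaled by library totals alone both passed (-0.34 and -0.32, adjusted p 0.0402 and 0.0485, edgeR). TIA1 was at 35.9, 37.2 and 38.1 CPM against 44.0, 50.1 and 42.6 CPM (-0.24, adjusted p 0.172, edgeR). The log2 fold changes of G3BP1, G3BP2, USP10 and UBAP2L lay between -0.07 and 0.03. The groups of G3BP1, G3BP2 and USP10 overlapped. Those of TIA1 did not, nor did those of UBAP2L, at up to 132.9 CPM in mQ and at least 133.27 CPM in pQ. The share of all genes without overlap was not counted.

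Other genes of stress granules and of P-bodies, cytoplasmic sites that hold decapping and decay factors, were counted from fixed lists without the 7 members. In the TCHX arm at 0 h, 18 of the 65 stress granule genes tested were higher in siCTU2 than in siGL2 and 10 were lower, beside 18.3% and 18.9% of all genes, with a median log2 fold change of 0.0463 against -0.0057 over all genes. The lowest were FMR1, the fragile X protein (-1.62), STAU1, a double-stranded RNA-binding protein (-1.13), and LARP1, a binder of mRNAs with 5′ terminal oligopyrimidine tracts (-0.69). The highest were FXR2, a relative of FMR1 (0.79), EIF3C, a translation initiation subunit with a near-identical copy (0.78), and HDAC6, a cytoplasmic deacetylase (0.77). Of 12 P-body genes tested, 3 were higher, namely the decapping enzyme DCP2 (0.46), EIF4ENIF1 (0.43) and LSM1 (0.40). Another 3 were lower, namely the deadenylase scaffold CNOT1 (-0.58), LSM14B (-0.57) and PATL1 (-0.43). In the T arm at 0 h, 11 of the 65 stress granule genes were higher in siCTU2 and 11 were lower, beside 17.8% and 18.2% of all genes. FMR1, STAU1 and LARP1 were again the lowest. The largest called rises there were EWSR1 (0.54), CIRBP (0.54) and FXR2 (0.54). Between mQ and pQ, 12 stress granule genes were higher and 13 lower, beside 12.5% and 12.4% of all genes, from RBFOX2 (-3.35), EIF4H (-1.65) and ELAVL1 (-0.70) to TRIM25 (0.87), CIRBP (1.02) and EIF3C (3.06). The 2 extremes were loosely measured, with an SE of 1.11 for RBFOX2 and 0.761 for EIF3C, against 0.0978 for ELAVL1 and 0.11 for CIRBP. The P-body genes XRN1 (0.48) and CNOT1 (0.31) were higher in mQ, and PATL1 (-0.75) was lower.

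Stability was measured as the change of each RNA after triptolide. Because total mRNA falls, counts were scaled to stable genes, those whose share of the library rose over time, of which 197 served in the siRNA experiment and 81 in the medium experiment, 0 of them members. Every change over time is therefore relative to these genes. On this scale, 29.2%, 17.1% and 13.4% of the 0 h count of G3BP2 was left at 3 h in the T arm of siCTU2, and 17.5%, 12.3% and 3.22% at 5 h. In siGL2, 80.9%, 76.9% and 79.7% was left at 3 h and 78.6%, 74.9% and 59.7% at 5 h. The siCTU2 and siGL2 values did not overlap, and the median gene stood at 67.5% and 52.1% in siCTU2 and at 71.0% and 58.6% in siGL2. G3BP2 thus lay below the median gene in siCTU2 and above it in siGL2.

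G3BP1 followed in the same order with a smaller gap. In siCTU2, 43.4%, 49.9% and 46.7% of G3BP1 was left at 3 h and 34.4%, 37.8% and 19.4% at 5 h. In siGL2, 69.8%, 79.4% and 75.0% was left at 3 h and 72.3%, 83.9% and 51.3% at 5 h. USP10 was short-lived in both conditions, with means of 55.2% and 36.5% in siCTU2 and of 58.8% and 39.4% in siGL2. Replicate 3 at 5 h was the lowest for all 7 members in siCTU2 and for 6 of 7 in siGL2, USP10 excepted, and also for the median gene (34.6% in siCTU2 and 46.3% in siGL2). The 5 h means therefore carry a wide spread.

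**Figure D3:**
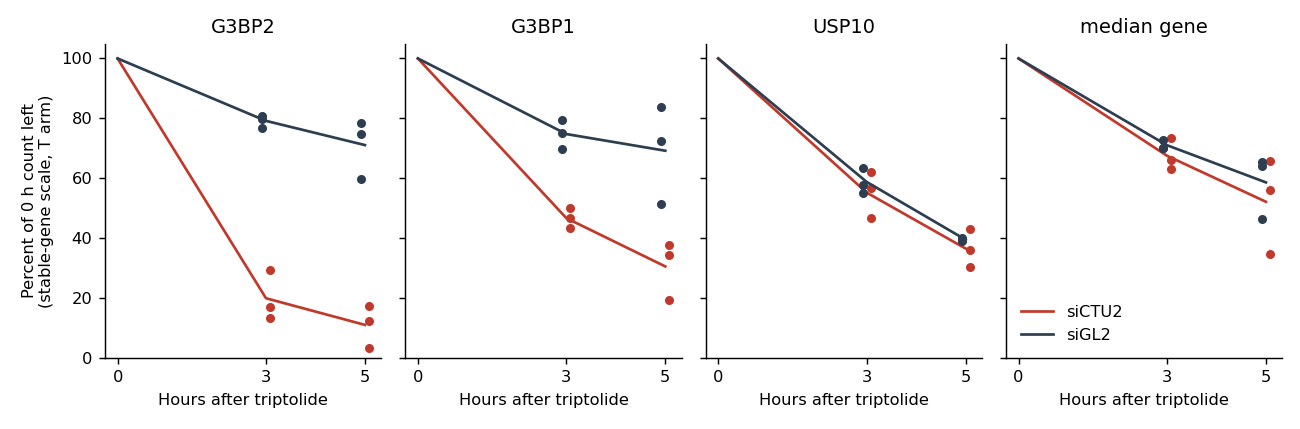
Percent of the 0 h count left at 3 h and 5 h after triptolide in the T arm, on the stable-gene scale, for G3BP2, G3BP1, USP10 and the median gene, in siCTU2 (red) and siGL2 (dark blue); points are replicates and lines join their means. At 3 h the G3BP2 mean was 19.9% in siCTU2 and 79.2% in siGL2, and the USP10 means were 55.2% and 58.8%.

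Tested as the mean of 3 h and 5 h against 0 h in edgeR, 6 of the 7 members fell in siCTU2 (56.7% of all genes passed), 6 in siGL2 (50.7%), 7 in mQ (61.5%) and 7 in pQ (65.5%). The median gene had a log2 change of -0.71 in siCTU2, -0.59 in siGL2, -0.66 in mQ and -0.71 in pQ. In siCTU2, G3BP2 (-2.82, adjusted p 0.000191) and G3BP1 (-1.40, adjusted p 0.000204) fell below the median gene, as did USP10 (-1.15), TIAL1 (-0.89) and TIA1 (-0.74), while UBAP2L (-0.61) and CAPRIN1 (-0.58, adjusted p 0.0693) lay above it. The T arm at 0 h, whose contrast chose the genes, is the baseline of these changes. With the TCHX arm at 0 h in its place, an alternative added after the data were seen, the siCTU2 changes were -2.91 for G3BP2 (adjusted p 0.000142, edgeR) and -1.38 for G3BP1 (adjusted p 0.000277, edgeR), and TIAL1 no longer passed (-0.64, adjusted p 0.134, edgeR). In siGL2 the order was TIAL1 (-1.16), USP10 (-1.06), TIA1 (-0.63), G3BP1 (-0.47), CAPRIN1 (-0.44, adjusted p 0.0624), UBAP2L (-0.44) and G3BP2 (-0.41). In mQ the members ran from USP10 (-1.27) to G3BP2 (-0.50), and in pQ from USP10 (-1.11) to UBAP2L (-0.47). USP10 thus lay below the median gene in all 4 conditions, and G3BP2 below it only in siCTU2, on this scale.

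With TMM, which sets the typical gene to about no change, all medians moved to between -0.0094 and 0.024, and members near the median turned positive without passing: CAPRIN1 and UBAP2L in siCTU2, G3BP1, G3BP2, CAPRIN1 and UBAP2L in siGL2, G3BP2, CAPRIN1, TIA1, TIAL1 and UBAP2L in mQ, and G3BP1, G3BP2, CAPRIN1 and UBAP2L in pQ. G3BP2 (-2.11, adjusted p 0.00133, edgeR) and G3BP1 (-0.70, adjusted p 0.000817, edgeR) still fell in siCTU2 on the TMM scale. USP10 kept its sign and passed only in siGL2, with log2 changes of -0.42 in siCTU2 (adjusted p 0.0546, edgeR), -0.63 in mQ (0.0747) and -0.38 in pQ (0.113). TIA1 and TIAL1 also lost their calls without a change of sign in siCTU2 (adjusted p 0.915 and 0.551), siGL2 (0.921 and 0.066) and pQ (0.312 and 0.232), as did G3BP1 in mQ (-0.013, adjusted p 0.963). Without replicate 2, no member passed in mQ (adjusted p 0.0563 to 0.133, edgeR), and without replicate 1 G3BP2, CAPRIN1, TIA1 and TIAL1 did not (0.0528 to 0.0737). Without replicate 1 or without replicate 2, the calls of G3BP1, G3BP2, TIA1 and UBAP2L in siGL2 were lost, as was TIAL1 without replicate 2 (adjusted p 0.0637 to 0.178, edgeR). In siCTU2, TIA1, TIAL1 and UBAP2L lost theirs without replicate 1 and TIAL1 without replicate 2 (0.086 to 0.175). In pQ, G3BP1, G3BP2, CAPRIN1 and UBAP2L lost theirs without replicate 1, and CAPRIN1, TIAL1 and UBAP2L without replicate 2 (0.0684 to 0.12). CAPRIN1 passed without replicate 3 in siCTU2 (-0.43, adjusted p 0.000631) and in siGL2 (-0.32, adjusted p 0.00163). With the replicate block CAPRIN1 also passed in siGL2 (-0.46, adjusted p 0.0303). At 3 h alone, the calls of G3BP1, G3BP2, TIA1, TIAL1 and UBAP2L in siGL2 (adjusted p 0.0943 to 0.146, edgeR), of TIA1 and TIAL1 in siCTU2 (0.0933 and 0.243) and of CAPRIN1 in pQ (0.0795) were lost. At 5 h alone, TIA1 in mQ (0.0544) and UBAP2L in pQ (0.051) did not pass, while CAPRIN1 did in siCTU2 (0.0425) and siGL2 (0.0458). The G3BP2 and G3BP1 calls in siCTU2 held under every alternative run, leaving out a replicate included.

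The difference in stability between siCTU2 and siGL2 was tested as an interaction. Only 64 of 13324 genes (0.48%) passed, G3BP2 among them at a log2 difference of -2.41 (SE 0.364, adjusted p 0.00406, edgeR), as 1 of the 7 members. It fell more in siCTU2 in each replicate, by -2.10, -2.69 and -3.76 against -0.33, -0.40 and -0.54 on the log2 scale in siGL2. The T arm at 0 h, which chose the genes, is the baseline of this difference. With the TCHX arm at 0 h in its place, an alternative added after the data were seen, the difference was -2.55 (SE 0.351, adjusted p 0.00209, edgeR). At 5 h alone it was -2.80 (adjusted p 0.00456, edgeR) and at 3 h alone -2.01 (adjusted p 0.15, edgeR). The call was lost without replicate 1 (-2.83, adjusted p 0.165, edgeR) and without replicate 2 (-2.42, adjusted p 0.344, edgeR). Without replicate 3 it was -2.03 (adjusted p 0.000195, edgeR). G3BP1 had a difference of -0.93 (SE 0.259, adjusted p 0.22, edgeR) and did not pass, but did with TMM (-0.87, adjusted p 0.00247) and without replicate 3 (-0.89, adjusted p 0.000195). Differences of the other 5 members ran from -0.17 in UBAP2L to 0.28 in TIAL1.

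Between mQ and pQ, 0 of 13273 genes (0%) passed in edgeR, and 756 had an unadjusted p under 0.05. The 7 members had differences from -0.16 in USP10 to 0.43 in TIAL1, with 0 at an unadjusted p under 0.05.

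The effect of cycloheximide on these RNAs was taken as the TCHX arm over the T arm at 3 h and 5 h. In edgeR the median gene had a log2 difference of 0.215 in siCTU2, 0.0461 in siGL2, 0.0482 in mQ and 0.0582 in pQ. USP10 was the member with the most regular response, with log2 differences per replicate of 0.89, 0.58 and 0.68 in siCTU2, 0.49, 0.60 and 0.44 in siGL2, 0.92, 0.90 and 0.18 in mQ and 0.45, 0.35 and 0.43 in pQ. All 12 values were positive, and the lowest came from the mQ replicate whose T 5 h library held leukocyte genes. In edgeR the USP10 difference was 0.71 (SE 0.11, adjusted p 0.000113) in siCTU2, 0.51 (SE 0.0803, adjusted p 0.000235) in siGL2 and 0.41 (SE 0.0992, adjusted p 0.00903) in pQ. In mQ it was 0.59 (SE 0.183, adjusted p 0.071), and 0.87 (adjusted p 1.49e-05) without mQ T 5 h replicate 3. It passed with the replicate block (0.63, adjusted p 0.0308), with TMM (0.55, adjusted p 0.0367) and with stable genes that passed at both times (0.65, adjusted p 0.0214). The pQ call was lost with TMM (0.31, adjusted p 0.111), without the filter (adjusted p 0.0696), without replicate 1 (0.39, adjusted p 0.219) or replicate 2 (0.44, adjusted p 0.137), and with stable genes that passed at both times (0.06, adjusted p 0.746). The siGL2 call was lost without replicate 2 (0.47, adjusted p 0.0696, edgeR). TIAL1 passed without replicate 3 in siGL2 (0.29, adjusted p 0.0465) and in mQ (0.37, adjusted p 0.00793). With the difference between arms at 0 h subtracted, the USP10 calls were lost in siGL2 (0.49, adjusted p 0.066) and in pQ (0.56, adjusted p 0.0722).

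In siCTU2, 3 of the 7 members passed, G3BP2, G3BP1 and USP10, beside 21.1% of all genes. For G3BP2 the edgeR difference was 2.23 (SE 0.715, adjusted p 0.0328), and it rested on siCTU2 TCHX 5 h replicate 3. The percent left in the TCHX arm was 24.3%, 22.4% and 35.1% at 3 h and 9.08%, 9.65% and 349% at 5 h. Without that library the difference was 0.24 (adjusted p 0.783, edgeR), without all of replicate 3 it was -0.19 (adjusted p 0.775), without replicate 2 it was 2.45 (adjusted p 0.085), with TMM 2.00 (adjusted p 0.0541), and with the replicate block 1.82 (adjusted p 0.101). G3BP1 had a difference of 0.74 (SE 0.191, adjusted p 0.0085, edgeR), and of 0.48 (adjusted p 0.0213, edgeR) without that library. Its call was lost without replicate 1 (0.90, adjusted p 0.0636, edgeR) and with the 0 h difference between arms subtracted (0.77, adjusted p 0.184), as was that of G3BP2 (2.14, adjusted p 0.317). Of the 7 members, 1 passed in siGL2 (12.7% of all genes), 0 in mQ (5.24%) and 1 in pQ (12.7%), each time USP10 where any passed. In mQ, USP10 alone of the members had an unadjusted p under 0.05 in edgeR, beside 2567 of 13442 genes.

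**Figure D4:**
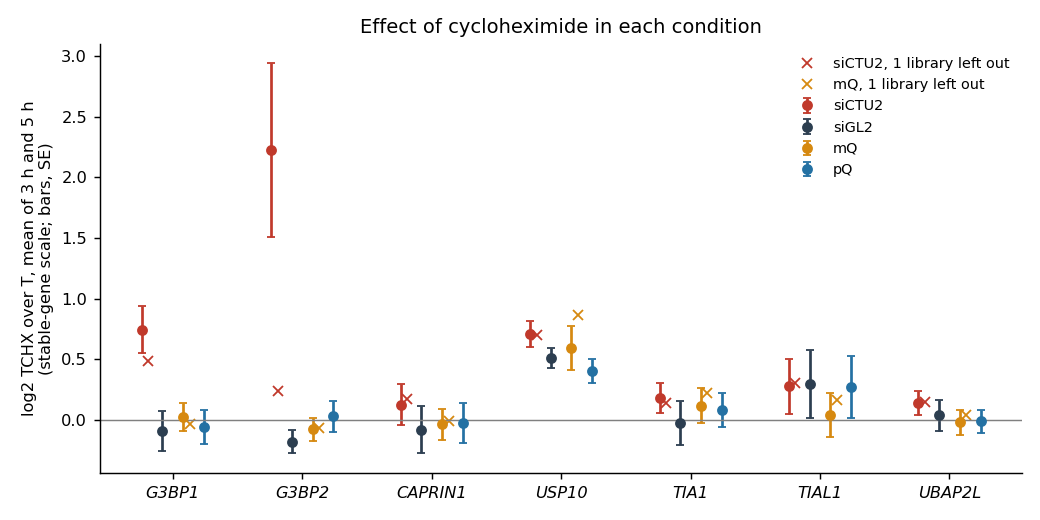
Log2 difference of the TCHX arm over the T arm, mean of 3 h and 5 h on the stable-gene scale, for the 7 genes in the 4 conditions; points with SE bars use all libraries and crosses leave out siCTU2 TCHX 5 h replicate 3 or mQ T 5 h replicate 3. The G3BP2 value in siCTU2 moved from 2.23 to 0.24 without its library, and the USP10 values stayed between 0.41 and 0.87.

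The translation-dependent decay (TDD) index, the count with cycloheximide minus the count without it, as a share of the count at 0 h, says what share of the starting RNA cycloheximide preserved. USP10 had the highest index of the members in siGL2, 0.194 ± 0.034 (SD, n = 3), and stood at 0.28 ± 0.0571 (SD, n = 3) in siCTU2. G3BP1 was at 0.255 ± 0.225 (SD, n = 3) in siCTU2 and -0.044 ± 0.0272 (SD, n = 3) in siGL2. G3BP2 was at 0.603 ± 1.07 (SD, n = 3) in siCTU2 and -0.0917 ± 0.0352 (SD, n = 3) in siGL2, with a spread in siCTU2 that exceeded its mean. In the linear model over condition, time and replicate, 0 of the 7 members passed an unadjusted p of 0.05 between siCTU2 and siGL2, where 8.15% of all genes did, and 0 of 7 between mQ and pQ, where 4.78% did. Without siCTU2 TCHX 5 h replicate 3 and its siGL2 partner, G3BP1 passed this unadjusted threshold with a difference of 0.15 (adjusted p 0.324) and G3BP2 with 0.14 (adjusted p 0.675). Neither adjusted value passed. Of all genes, 905 of 12263 passed the unadjusted threshold in this setting. Between mQ and pQ, G3BP1, CAPRIN1, USP10 and UBAP2L passed the unadjusted threshold without replicate 3 (differences of 0.06 to 0.13, adjusted p 0.258 to 0.372), and G3BP2 without replicate 1 (-0.08, adjusted p 0.961). Of all 12395 genes, 1600 passed it without replicate 3 and 428 without replicate 1. With stable genes that passed at both times, 5 of the 7 members did (G3BP1, CAPRIN1, USP10, TIA1 and UBAP2L, differences of 0.12 to 0.16, adjusted p 0.0696 to 0.197), beside 3173 of 12664 genes. With TMM, G3BP1 (0.075, adjusted p 0.678) and USP10 (0.12, adjusted p 0.647) did, as did G3BP1 between siCTU2 and siGL2 (0.40, adjusted p 0.724). With each arm divided by its own 0 h library, G3BP2 did between mQ and pQ (-0.17, adjusted p 0.091), beside 2809 of 12341 genes. With TMM, 816 of 11998 genes passed between mQ and pQ and 795 of 11909 between siCTU2 and siGL2.

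Over the 24 groups, the levels of G3BP2 and G3BP1 had a Pearson r of 0.975 (log2 mean CPM plus 1). The groups include the T arm at 0 h, which chose the genes, and both genes were low in every siCTU2 group. A high r follows from that, so r and the ranks below largely restate it and are a description only. They include siCTU2 TCHX 5 h replicate 3 and were not computed without it. Among 8224 genes, G3BP1 was the 30th most like G3BP2, and the other members had r from -0.41 (TIAL1) to 0.30 (TIA1). The 5 genes most like G3BP2 were ACBD5 (0.993), PRELID1 (0.991), KIF3B (0.990), LRRFIP1 (0.989) and AIFM2 (0.989). The 5 most like G3BP1 were STAU1 (0.991), KIF3B (0.990), FMR1 (0.990), C11orf24 (0.990) and TMCO3 (0.989). Of these 9 genes, 3 held a match of either siCTU2 guide seed in the 3′ UTR (ACBD5, KIF3B and FMR1), against 21.6% of all genes.

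The calls at 0 h in the TCHX arm were set beside the seed matches of all genes. Of 9702 genes without ATGACCA in the 3′ UTR, 19.1% were lower in siCTU2 and 19.3% higher, and of 1032 genes with 1 match, 31.8% were lower and 15.8% higher. Of 137 genes with 2 or more, 30.7% were lower and 19.7% higher. For AAGGACT, 18.6% of 9380 genes without a match were lower, as were 30.6% of 1253 genes with 1 match and 39.5% of 238 genes with 2 or more, the class of G3BP1. Among the 307 genes with both sets of letters, the class of G3BP2, 38.8% were lower and 13.4% higher. Among 163 genes with TACTTCG, the seed complement of the control siRNA, 12.9% were lower in siCTU2 and 35.6% higher. Longer 3′ UTRs hold more matches, and UTR length was not matched in these counts. TIA1, in the class with 1 AAGGACT match, did not pass the test. These shares describe classes of genes and do not say why any single member was or was not called. The part of these matches in the calls was not tested.

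**Figure D5:**
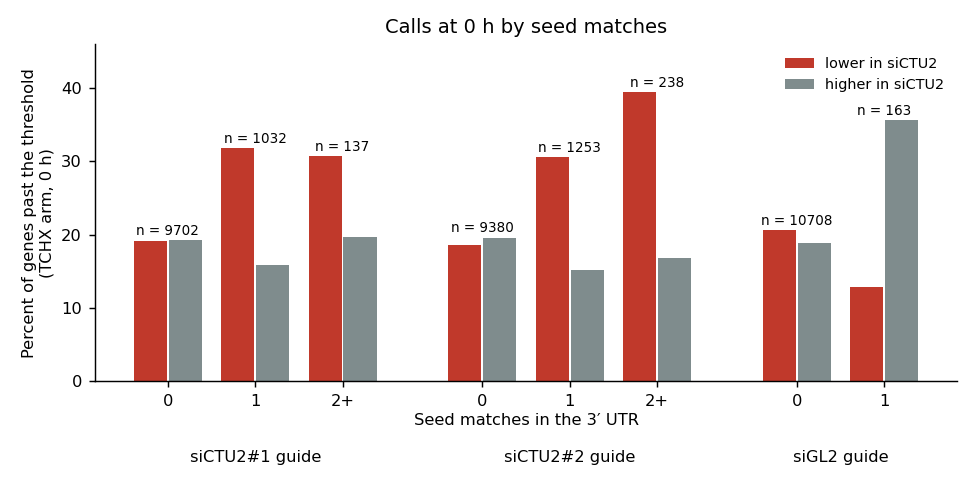
Percent of genes called lower (red) or higher (grey) in siCTU2 than in siGL2 at 0 h of the TCHX arm, by the number of matches of each guide's seed in the 3′ UTR; n gives the genes in each class. With 0, 1 and 2 or more AAGGACT matches, 18.6%, 30.6% and 39.5% of genes were lower.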

How the data were processed

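The deposited table holds raw read counts per gene. Per the labels and the study's methods, the authors trimmed reads (fastp 0.20.1), mapped them to GRCh38.p13 (HISAT2 2.2.1) and counted them on the NCBI annotation (HTSeq 0.13.5). No molecular identifiers were stated, so counts may include PCR copies. The members, gene lists and alternatives were chosen with earlier results of these data known.

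Counts were tested in R 4.3.3 with edgeR 4.0.16 (filterByExpr, quasi-likelihood test, Benjamini-Hochberg adjustment over all genes, threshold 0.05), after the scripts were tested on simulated data. The edgeR fits held no replicate term unless a replicate block is named, so libraries of the same replicate number counted as separate. TMM scaling was used at 0 h, with 6 libraries per comparison. For changes over time, counts were scaled by the median of ratios to stable genes, after the study's methods: above 0.2 CPM at 0 h and at least 1.1 times that at 3 h or 5 h in every replicate and arm. The TDD index was kept for genes with a mean scaled 0 h count of at least 10. Stable genes held 4.30% of counts in the siRNA experiment and 2.51% in the medium experiment. Permutation tests used SciPy 1.17.1, and DESeq2 1.42.0 was an alternative.

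Replicate numbers came from the sample titles. Deviations from group means correlated in all 3 same-numbered pairs for siCTU2 and siGL2 in the TCHX arm at 0 h (r 0.155 to 0.325) and for the arms of pQ (0.159 to 0.889), and not for mQ and pQ at 0 h (-0.177 to 0.133). For the arms of siCTU2 and mQ and for decay in siCTU2, siGL2 and pQ, all 3 pairs were above 0.1 at 3 h and not at 5 h.

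Named were all 7 members, CTU2, the 3 genes of each list with the largest called rise and fall at 0 h, and the 5 genes most like each paralog among those with a mean of at least 10 CPM. Guide seeds were searched in GENCODE 44 canonical transcripts; gene counts carry no coordinates. No identical libraries were found.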

Additional observations from a re-analysis of the deposited data

Results flagged for a closer look

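The decay of G3BP2 differed between siCTU2 and siGL2 by -2.41 on the log2 scale, past the threshold of the interaction test in edgeR (adjusted p 0.00406). The T arm at 0 h, whose contrast chose the gene, is the baseline of this difference, and with the TCHX arm at 0 h in its place, an alternative added after the data were seen, it was -2.55 (adjusted p 0.00209, edgeR). The call was lost without replicate 1 (adjusted p 0.165) or without replicate 2 (adjusted p 0.344), and the siCTU2 values at 5 h rested on 5 to 20 counts.

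For G3BP1, the cycloheximide effect had opposite signs in all replicates of the 2 conditions, at 0.39, 0.35 and 1.41 in siCTU2 and -0.04, -0.08 and -0.24 in siGL2, a gap of 0.83 between the means. This difference in log2 effects was not tested. The largest value, 1.41, came from the replicate whose TCHX 5 h library held leukocyte genes.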

How the results depend on the processing

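In the TCHX arm at 0 h, G3BP2 and G3BP1 kept direction and call under every alternative run, from -3.44 to -3.64 and from -1.33 to -1.40. Over all comparisons, 724 member values kept their sign and call. Of the counts or ratios, 82 stayed near the main value and 52 moved away from it. Member calls were lost 71 times, gained 39 times and turned sign 18 times, and 65 member values without a call changed sign. The causes were not tested.

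The number of genes past the threshold moved as follows. With TMM, decay gave 2953 in siCTU2, 2567 in siGL2, 1412 in mQ and 2540 in pQ, and the cycloheximide effect in mQ gave 1192. With stable genes that passed at both times (8 and 3 genes), the counts were 10387 for decay in siGL2, 1110 and 1253 for cycloheximide in siGL2 and mQ, 22 for the decay difference in siCTU2, and 544 and 3173 for the TDD index in siCTU2 and mQ. Without the filter on low counts they were 1548 for cycloheximide in mQ and 107 and 162 for the decay differences in siCTU2 and mQ. At 3 h alone they were 3555 and 3596 for decay in siCTU2 and siGL2 and 7 for the decay difference in siCTU2. With the 0 h difference subtracted, cycloheximide gave 1177, 506, 1 and 703 in siCTU2, siGL2, mQ and pQ. The TDD index with each arm divided by its own 0 h library gave 2205 and 2809. Between mQ and pQ, the other arm at 0 h gave 810, and 2555 without pQ TCHX 0 h replicate 3. Without mQ T 5 h replicate 3, a choice made after seeing the data, cycloheximide in mQ gave 2916 and the decay difference 1. The log2 ratio of the paralogs at TCHX 0 h alone was -2.15.

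Leaving out each replicate in turn gave 1476 to 3319 genes for mQ against pQ at 0 h, and for decay 2962 to 8591 in siCTU2, 3438 to 7627 in siGL2, 0 to 8244 in mQ and 4249 to 9145 in pQ. The cycloheximide effect gave 1275 to 2337, 688 to 2576, 1 to 3286 and 754 to 2246 in the same order. The decay differences gave 0 to 161 and 0 to 700, and the TDD index 483 to 1257 and 381 to 1600.

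Values past the threshold on the stable-gene scale that changed sign with TMM were UBAP2L 0.13 in siCTU2, G3BP1 0.13, G3BP2 0.20 and UBAP2L 0.18 in siGL2, G3BP2 0.19, CAPRIN1 0.15, TIA1 0.082, TIAL1 0.020 and UBAP2L 0.056 in mQ, and G3BP1 0.13, G3BP2 0.12, CAPRIN1 0.12 and UBAP2L 0.23 in pQ. The G3BP2 cycloheximide effect in siCTU2 ran from -0.19 to 3.05 as each replicate was left out. The TDD differences between mQ and pQ turned to 0.12 for CAPRIN1 and 0.14 for UBAP2L with the stricter stable genes, and ran from -0.063 to 0.088 and from -0.042 to 0.061 as each replicate was left out.

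In the paired comparisons the replicate block changed no member call, with G3BP2 at -3.52 and G3BP1 at -1.37 in the TCHX arm at 0 h. Where all same-numbered pairs correlated at 3 h but not at 5 h, the block ended the G3BP2 cycloheximide call in siCTU2 (1.82, adjusted p 0.101) and added CAPRIN1 decay in siGL2 (-0.46, adjusted p 0.0303) and USP10 in mQ (0.63, adjusted p 0.0308). It changed no other member call. G3BP2 in siCTU2 rested on 5 to 136 counts per library other than TCHX 5 h replicate 3.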
